A study of Mus musculus with 48 samples.

Results

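Adult neural stem cell cultures given Cre to delete the histone methyltransferase gene Setd1a are described here at day 4, the earliest collection of the study, across all expressed genes. The day 4 count table held 8 of the 48 libraries of the series, 4 labelled KO and 4 labelled WT, and both groups were chosen by these labels alone. Of 39017 genes counted, 11430 passed a filter on low counts and were tested. The cells of both groups carried the same alleles, Hopx-CreERT2, Setd1a fl/fl and H2B-GFP, and came from the dentate gyrus of mice 7 to 8 weeks old. They were held quiescent in medium with BMP4 and FGF2 (20 ng/ml each) and without EGF. KO cultures received a lentivirus for Cre-GFP and WT cultures one for GFP alone, so WT here means an unrecombined floxed culture and not a genetically wild-type one. Days were counted from the start of the BMP4 and FGF2 exposure, and the virus was added after the cells had become quiescent. The study states that not every cell took up the virus, so KO libraries also held RNA of unrecombined cells. Loss of Setd1a, the presence of Cre and recombination of the H2B-GFP reporter in the Rosa26 locus came together in KO and cannot be told apart.

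Setd1a is the catalytic subunit of a COMPASS complex that methylates histone H3 at lysine 4 near promoters, a mark found at active genes. Quiescent neural stem cells of the dentate gyrus rest outside the cell cycle, resemble astroglia in their transcripts, and are kept in that state in culture by BMP signalling. When they are activated they are known to shift their energy metabolism, extracellular matrix and cell cycle genes.

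The 8 libraries held 5811077 to 8396175 counted reads. Levels are given as CPM (reads of a gene per 1000000 counted reads, with library totals scaled by TMM), and their precision is limited by this depth and by 4 libraries a group. The labels only number the libraries, and the study states that each RNA-seq group came from independent cultures. The 10 markers of neural stem cells and astroglia summed to 11400 to 12000 CPM in WT and 11000 to 11400 CPM in KO. Sox10, Aif1, Cldn5 and Lum, markers of other cell types, had no count in any library. Not all such markers were near 0. The 5 endothelial and mural markers summed to 56.8 to 69.2 CPM in WT and 50.8 to 61.6 CPM in KO. Most of this was Rgs5 (56 to 67.9 and 50 to 60.4 CPM). The sum of the oligodendrocyte markers was not near 0 either and is not reported here. The 6 neuronal markers summed to 12.5 to 15.8 CPM in WT and 13.8 to 19.2 CPM in KO, the 6 microglial markers to 2.08 to 7.34 and 3.12 to 5.27 CPM, and the 4 ependymal markers to 7.81 to 11.0 and 6.49 to 11.2 CPM. Transcripts that collect ribosomal RNA reads took 1.09 to 1.12% of counts in WT and 0.888 to 1.03% in KO, without overlap, and the part of this difference in the results below was not tested. On a plot of the leading differences between libraries the first dimension, with 17.2% of the variance, did not separate the genotypes, while on the second, with 16.5%, all WT libraries lay above all KO libraries.

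Setd1a itself was not detectably lower in KO on day 4. Its level was 1.39, 1.95, 1.41 and 1.78 CPM in the 4 WT libraries and 2.63, 3.55, 1.84 and 2.01 CPM in the 4 KO libraries. The groups overlapped, and the log2 fold change was 0.60 ± 0.38 (SE, adjusted p = 0.533) by edgeR's quasi-likelihood test with Benjamini-Hochberg adjustment, the test behind every adjusted p below. Reads were counted per gene, so exons outside the floxed part could add reads. However, 52.3% of the exonic length of Setd1a overlaps another annotated gene on the same strand (Gm49388). Reads there cannot be assigned to 1 gene and may not have been counted. At about 2 CPM, these counts check the labels poorly. The Rosa26 transcript Gt(ROSA)26Sor, whose locus holds the Cre reporter in these mice, was 1478, 1336, 1397 and 1372 CPM in the 4 WT libraries and 968, 985, 1008 and 1016 CPM in the 4 KO libraries. Every KO library was below every WT library, with a log2 fold change of -0.49 ± 0.04 (SE, adjusted p = 5.7e-07). Thumpd3, its neighbour in the genome, was at 50.1 to 76.8 CPM in WT and 63.0 to 66.5 CPM in KO (adjusted p = 0.868).

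Which transcripts were the first to respond was asked by setting the KO libraries of day 4 against the WT libraries. Of the 11430 genes tested, 182 passed the threshold of adjusted p under 0.05, which is 1.59%. In KO 106 genes (0.927%) were higher and 76 (0.665%) were lower, and the median log2 fold change over all genes tested was -0.0026. In bulk RNA a change in the number of cells of a state and a change in RNA per cell cannot be told apart. The differences were small. Only 31 of the 182 differed by at least 1.5-fold and 10 by at least 2-fold, and the median absolute log2 fold change of the called genes was 0.33. In 170 of the 182 no KO library overlapped a WT library, against 7.85% of all genes tested without such overlap. The 182 were called on these same libraries, so this contrast is largely fixed by the choice. Calls depended on the level of a gene: 0.11% of genes with an average log2 CPM of 2 or less were called, against 11.3% of those above 8. The number called also depended on single libraries. It was 98, 90 and 104 without WT replicates 1, 2 and 3, and 96 without KO replicate 3, and none of the 182 changed sign when any 1 library was left out. Of the 95 genes named by rule that passed, 15 passed in all 21 alternative analyses: Npvf, Tnc, Jag1, Eda2r, Car2, Cycs, Mdh2 and Tmtc3 (higher in KO), and Igfbp5, Gt(ROSA)26Sor, Bnip3, Ccdc148, Slc38a2, Wsb1 and mt-Rnr1 (lower in KO).

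**Figure D1:**
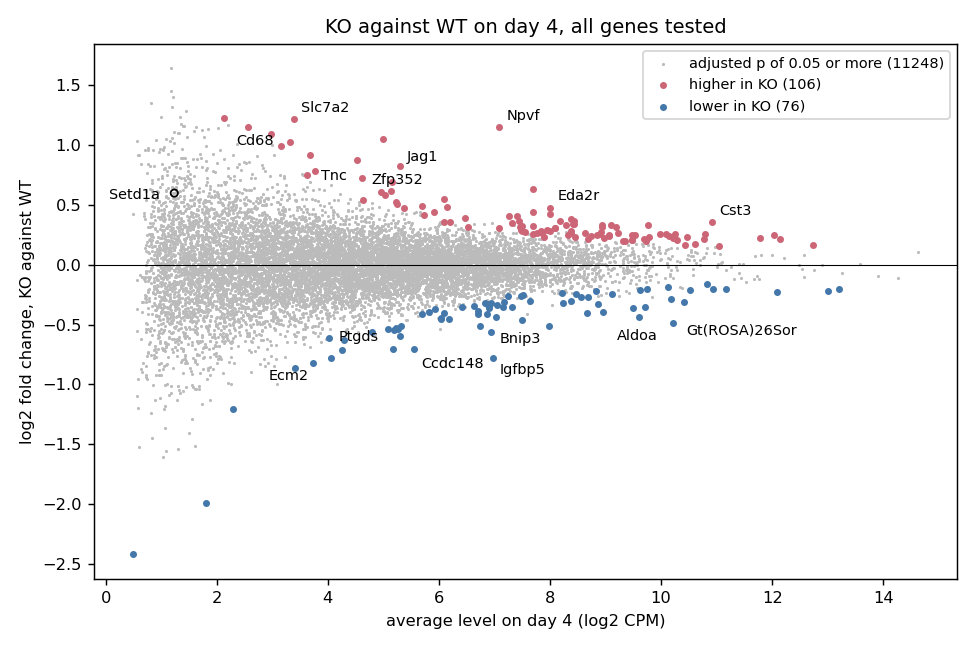
Log2 fold change of KO against WT on day 4 (vertical axis) against the average level of each gene in log2 CPM (horizontal axis), for all 11430 genes tested. Grey points did not pass adjusted p under 0.05, red points (106) were higher and blue points (76) lower in KO, and the open circle is Setd1a, which did not pass; among highly expressed genes the called differences were mostly under 0.5 on the log2 scale.

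The transcript with the smallest p on day 4 was Npvf, which encodes the precursor of RFamide-related neuropeptides. Npvf (chromosome 6, 50650672 to 50654439, GRCm38) was at 77.0, 88.8, 84.5 and 86.8 CPM in the 4 WT libraries and 174, 177, 187 and 209 CPM in the 4 KO libraries. The lowest KO library was far above the highest WT library, and the log2 fold change was 1.15 ± 0.08 (SE, adjusted p = 4.97e-09). Its level also varied strongly between days. Without TMM scaling, the WT mean was 84.1 CPM on day 4, 677 CPM on day 5, 105 CPM on day 6 and 621 CPM on day 9. Under DMSO on day 7 it was 30.7 CPM. Days 5, 6 and 9 were deposited together, while for days 4 and 7 table and day cannot be told apart. Slc7a2, a cationic amino acid transporter, was scarce at 5.20, 5.84, 7.81 and 5.71 CPM in the 4 WT libraries and 11.7, 11.1, 19.4 and 14.7 CPM in the 4 KO libraries. The groups did not overlap, and the log2 fold change was 1.21 ± 0.22 (SE, adjusted p = 0.0036).

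Tnc, the matrix glycoprotein tenascin C, was at 21.3, 12.7, 18.3 and 12.5 CPM in the 4 WT libraries and 26.6, 30.0, 27.5 and 32.9 CPM in the 4 KO libraries. The highest WT library stayed below the lowest KO library, with a log2 fold change of 0.87 ± 0.17 (SE, adjusted p = 0.00593). Jag1, a membrane-bound ligand of Notch receptors, was at 36.4, 28.1, 20.1 and 28.5 CPM in the 4 WT libraries and 46.7, 49.9, 51.2 and 51.5 CPM in the 4 KO libraries. WT libraries were spread widely, all were below KO, and the log2 fold change was 0.82 ± 0.14 (SE, adjusted p = 0.00173). Hbegf, a ligand of the EGF receptor, rose by 0.61 ± 0.13 (SE, adjusted p = 0.0133), with KO replicate 4 at 33.0 CPM, nearest to the WT libraries (25.1 to 30.7 CPM). Without WT replicate 3 this call was lost (adjusted p = 0.0575).

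Car2, the cytosolic carbonic anhydrase 2, was at 215, 219, 212 and 228 CPM in the 4 WT libraries and 278, 294, 295 and 300.0 CPM in the 4 KO libraries. KO libraries lay close together above all WT libraries, with a log2 fold change of 0.42 ± 0.06 (SE, adjusted p = 2.89e-04). Tmtc3, an enzyme of the endoplasmic reticulum that adds mannose to cadherins, was at 176 ± 7.90 CPM in WT and 238 ± 9.51 CPM in KO (SD, n = 4 each), a log2 fold change of 0.44 ± 0.06 (SE, adjusted p = 3.52e-04). Olfm1, a secreted olfactomedin, rose by 0.54 ± 0.10 (SE, adjusted p = 0.00479) and Dpysl3, a cytoskeletal collapsin response mediator, by 0.36 ± 0.06 (SE, adjusted p = 8.15e-04). Cst3, the protease inhibitor cystatin C, was at 1946, 1804, 1492 and 1529 CPM in the 4 WT libraries and 2364, 2398, 2010.1 and 1892 CPM in the 4 KO libraries. In Cst3 the ranges overlapped, with KO replicate 4 below WT replicate 1, although the test was passed (adjusted p = 0.0126). Among the most abundant transcripts, Pls3 (plastin 3, an actin bundler) rose by 0.24 ± 0.04 (SE, adjusted p = 0.00132) and Tmsb4x (thymosin beta 4, which binds actin monomers) by 0.16 ± 0.03 (SE, adjusted p = 0.0138).

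Among lower transcripts, Igfbp5 and Gt(ROSA)26Sor had the smallest p. Igfbp5, a secreted binding protein of insulin-like growth factors (chromosome 1, 72857932 to 72874884), was at 158, 153, 156 and 163 CPM in the 4 WT libraries and 94.7, 92.0, 96.9 and 83.9 CPM in the 4 KO libraries. The groups were well apart, and the log2 fold change was -0.78 ± 0.07 (SE, adjusted p = 9.55e-07). Of 12 members of the insulin-like growth factor axis that were tested, Igfbp5 and the secreted protease Htra1 (-0.39 ± 0.10 SE, adjusted p = 0.0426) were lower and 0 were higher, with a median of -0.06. The share called in this short list was 16.7%, against 1.59% of all genes tested and 2.61% of those with an average log2 CPM of 6 to 8. Htra1 lost its call when any 1 library but KO replicate 4 was left out, with an adjusted p of up to 0.151.

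Wsb1, a substrate receptor of ubiquitin ligases, was at 559.9, 561, 570.1 and 561 CPM in the 4 WT libraries and 452, 436, 408 and 417 CPM in the 4 KO libraries. The WT libraries lay close together and all KO libraries were below them, with a log2 fold change of -0.40 ± 0.05 (SE, adjusted p = 1.39e-04). Slc38a2, the amino acid transporter SNAT2, was at 126, 119, 117 and 136 CPM in the 4 WT libraries and 92.1, 85.7, 88.9 and 83.2 CPM in the 4 KO libraries. Its log2 fold change was -0.51 ± 0.08 (SE, adjusted p = 7.12e-04), while Aars, the alanyl-tRNA synthetase of the same amino acid response list, rose by 0.52 ± 0.11 (SE, adjusted p = 0.0133), and 31 of the 33 members tested passed in neither direction. Ptgds, which makes prostaglandin D2, was at 44.1 ± 2.64 CPM in WT and 27.2 ± 1.92 CPM in KO (SD, n = 4 each), a log2 fold change of -0.70 ± 0.11 (SE, adjusted p = 0.00133). Mgst1, a microsomal glutathione transferase, fell by 0.35 on the log2 scale (SE 0.05, adjusted p = 3.43e-04), while the cytosolic glutathione transferase Gstm1 rose by 0.21 ± 0.05 (SE, adjusted p = 0.0215).

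**Figure D2:**
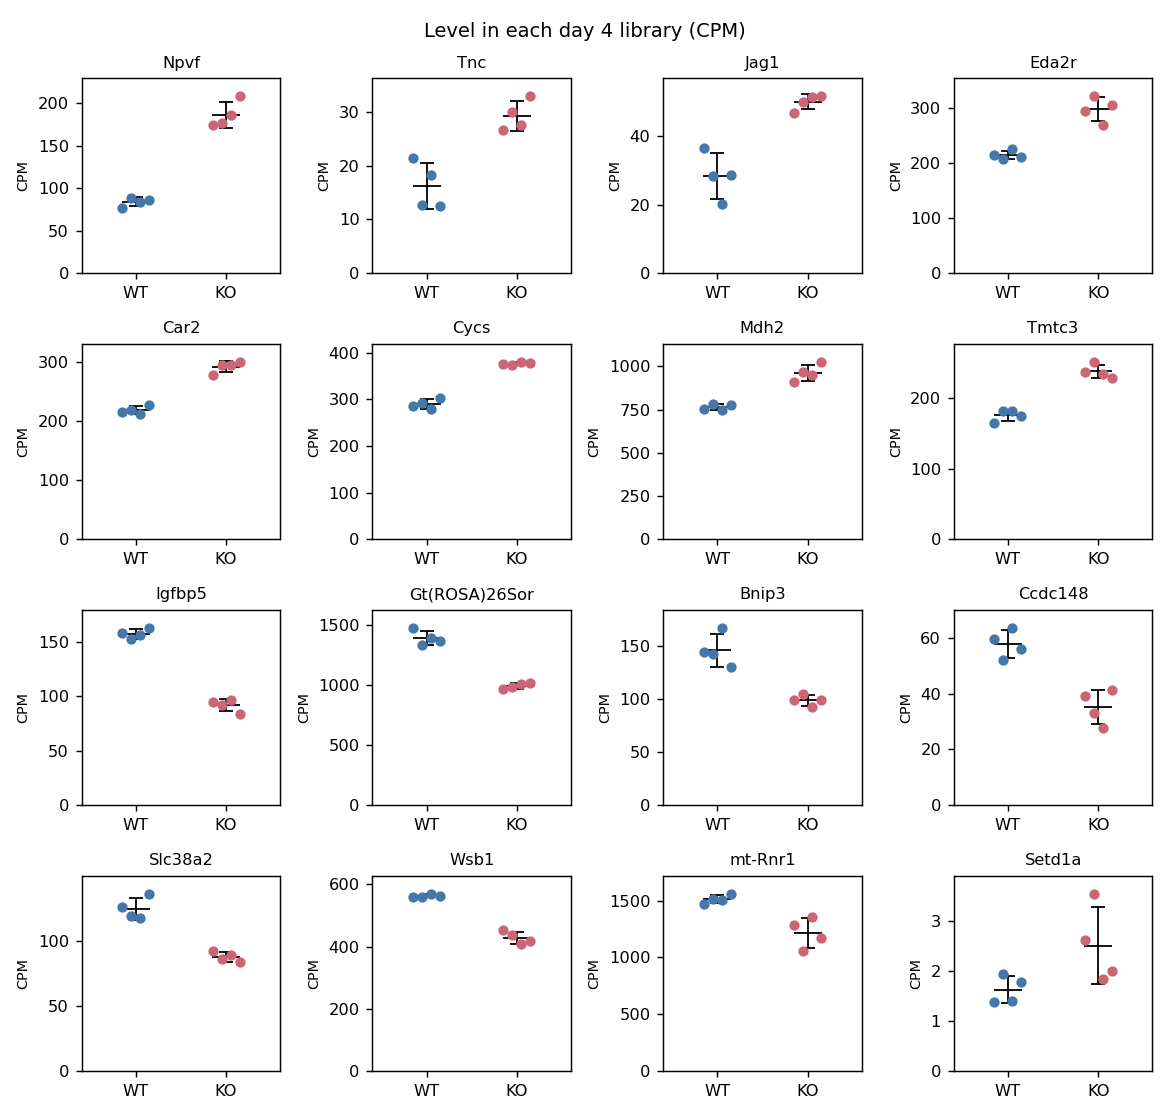
Level in CPM (vertical axes, from 0) of the 15 named genes that passed in every alternative analysis and of Setd1a, with 1 point for each of the 4 WT libraries (blue) and 4 KO libraries (red), in the order of their replicate numbers from left to right. Black lines give the mean and SD; in all panels but Setd1a the KO and WT points do not overlap.

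Targets of p53, the transcription factor that halts the cell cycle or starts cell death after damage, leaned higher in KO already on day 4. Of 33 tested, 5 passed as higher and 0 as lower, 30 had a log2 fold change above 0, and the median was 0.20 against -0.0026 over all genes tested. The share called was 15.2%, against 1.59% of all genes tested. Calls were more common among highly expressed genes, with 2.61% at an average log2 CPM of 6 to 8 and 11.3% above 8. The lists were chosen with earlier results of these data known. Eda2r, a receptor of the tumour necrosis factor family, was at 215, 208, 225 and 211 CPM in the 4 WT libraries and 296, 322, 270.1 and 306 CPM in the 4 KO libraries. Every KO library was above every WT library, with a log2 fold change of 0.48 ± 0.06 (SE, adjusted p = 1.87e-04). The antiproliferative gene Btg2 rose by 0.35 ± 0.09 (SE, adjusted p = 0.0407), Trp53inp1 by 0.24 ± 0.05 (SE, adjusted p = 0.0125), the death receptor gene Fas by 0.23 ± 0.06 (SE, adjusted p = 0.0317) and the ribosomal protein gene Rps27l by 0.20 ± 0.05 (SE, adjusted p = 0.0499). Of these, Eda2r alone passed in all 21 alternatives, and 2 to 4 of the list passed as higher when 1 library was left out (2 without WT replicate 1, 2 or 3 or KO replicate 3 or 4). The list median was 0.44 on day 5, 0.26 on day 6, 0.05 on day 7 under DMSO and 0.26 on day 9, in libraries that share no sample with day 4.

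Nuclear genes of the respiratory chain leaned higher as well. Of 28 genes of complexes III and IV with cytochrome c, 6 were higher, 0 lower and 26 above 0, with a median log2 fold change of 0.20. This count fell to 3 without WT replicate 1, 2 or 3 or KO replicate 3. The list median was 0.10 on day 5, -0.16 on day 6, 0.21 on day 7 under DMSO and 0.05 on day 9. On day 6, 9 members were called lower and 0 higher. Cycs, the electron carrier cytochrome c, was at 285, 292, 279.8 and 302 CPM in the 4 WT libraries and 375, 374, 380.0 and 377 CPM in the 4 KO libraries. The KO libraries differed by a few CPM among themselves and all lay above WT, with a log2 fold change of 0.38 ± 0.05 (SE, adjusted p = 3.43e-04). Uqcrc2, a core subunit of complex III, rose by 0.34 ± 0.06 (SE, adjusted p = 0.00457), and Ndufa4, now counted with complex IV, by 0.26 ± 0.05 (SE, adjusted p = 0.00496). Cox6b1, Uqcrq and Uqcr10 were the others called, each at 0.20 to 0.24, and in Cox6b1 and Uqcrq a KO library fell inside the WT range. The calls of Cox6b1 and Uqcr10 were lost after a correction for GC content and length. Uqcrc2 shares 19.8% of its exonic length with Pdzd9, on the other strand.

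Of 22 genes of ATP synthase and the adenine nucleotide carriers, 4 were higher, 0 lower and 18 above 0, with a median of 0.14. This count fell to 1 without WT replicate 1 or 2 or KO replicate 3 or 4, and to 2 without WT replicate 3. The list median was 0.13 on day 5, -0.13 on day 6, 0.27 on day 7 under DMSO and 0.05 on day 9. Slc25a5, the carrier that exchanges ADP and ATP across the inner membrane, was at 1575, 1616, 1578 and 1669.5 CPM in the 4 WT libraries and 1924, 1873, 1983 and 1900.0 CPM in the 4 KO libraries. No library overlapped between groups, and the log2 fold change was 0.25 ± 0.04 (SE, adjusted p = 7.71e-04). Atp5g1, Atp5o and Atp5j2 rose by 0.22 to 0.25 on the log2 scale, and Atp5o shares 47.9% of its exonic length with Gm15976. Of 25 genes of the tricarboxylic acid cycle, 3 were higher and 0 lower. The mitochondrial malate dehydrogenase Mdh2 was at 756, 784, 749 and 777 CPM in the 4 WT libraries and 911, 967, 949.9 and 1025 CPM in the 4 KO libraries, all KO libraries above all WT libraries, with a log2 fold change of 0.33 ± 0.05 (SE, adjusted p = 3.52e-04). Its cytosolic counterpart Mdh1 rose by 0.23 ± 0.04 (SE, adjusted p = 0.00202) and Idh3a, the catalytic subunit of the NAD-dependent isocitrate dehydrogenase, by 0.32 ± 0.05 (SE, adjusted p = 7.98e-04). Of 40 genes of complex I, Ndufa11 alone passed (0.30 ± 0.08 SE, adjusted p = 0.0448), and of 72 genes of the mitochondrial ribosome 0 passed in edgeR, 5 had an unadjusted p under 0.05 and 1 was called by DESeq2.

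Transcripts made inside the mitochondrion did not share this direction. Of 7 mitochondrially encoded mRNAs tested, mt-Nd4 passed as lower and 0 as higher, with a list median of -0.10. The level of mt-Nd4, a subunit of complex I, was 4559, 4772, 4580.0 and 4805 CPM in the 4 WT libraries and 3986, 3891, 4084 and 4031 CPM in the 4 KO libraries. The groups were apart, and the log2 fold change was -0.23 ± 0.03 (SE, adjusted p = 5.23e-04). The mitochondrial ribosomal RNAs mt-Rnr1 (-0.31 ± 0.06 SE, adjusted p = 0.0036) and mt-Rnr2 (-0.22 ± 0.04 SE, adjusted p = 0.0029) were lower too. The calls of mt-Nd4 and mt-Rnr2 were lost after a correction for GC content and length (adjusted p = 0.0921 and 0.155). The summed share of mitochondrially encoded reads was 6.73 to 7.08% in WT and 6.45 to 6.96% in KO, ranges that overlapped. The share called was 21.4% for complexes III and IV, 18.2% for ATP synthase and the carriers and 12% for the tricarboxylic acid cycle. Of all genes tested it was 1.59%. These lists hold highly expressed genes, a class in which calls were more common, as given above.

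Genes of the hypoxia response leaned lower. This programme is driven by hypoxia-inducible factors, which bind the core letters ACGTG, and it raises glycolysis and mitophagy when oxygen is scarce. Of 26 genes tested, 5 were lower, 0 higher and 8 above 0, with a median log2 fold change of -0.14. The share called was 19.2%, against 1.59% of all genes tested. At an average log2 CPM of 6 to 8 it was 2.61% of genes, and above 8 it was 11.3%. Bnip3, a mitophagy receptor, was at 144, 142, 167 and 129.6 CPM in the 4 WT libraries and 99.0, 105, 92.2 and 98.8 CPM in the 4 KO libraries. All KO libraries were below all WT libraries, and the log2 fold change was -0.56 ± 0.08 (SE, adjusted p = 4.87e-04). Bnip3 shares 22.2% of its exonic length with Gm45507. Aldoa, a glycolytic aldolase, was at 891, 968, 898 and 811 CPM in the 4 WT libraries and 751, 740.4, 594 and 556 CPM in the 4 KO libraries, a log2 fold change of -0.43 ± 0.08 (SE, adjusted p = 0.0029). KO replicates 3 and 4 were the lowest and KO replicates 1 and 2 stood between them and WT.

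Egln1, the prolyl hydroxylase that marks hypoxia-inducible factors for destruction, fell to 69.4 to 83.7 CPM from 89.9 to 101 CPM in WT (-0.35 ± 0.09 SE, adjusted p = 0.0331). Fam162a, a hypoxia-induced mitochondrial gene, fell to 99.2 to 111 CPM from 132 to 136 CPM (-0.36 ± 0.07 SE, adjusted p = 0.00766). Pdk1, the kinase that shuts off pyruvate dehydrogenase, fell to 47.2 to 68.6 CPM from 71.9 to 78.7 CPM (-0.44 ± 0.11 SE, adjusted p = 0.0317). With 1 library left out, 3 or 4 of the list were called lower (3 without any 1 of the WT replicates or without KO replicate 3 or 4). The list median was -0.08 on day 5, 0.39 on day 6, -0.27 on day 7 under DMSO and -0.11 on day 9. On day 6, 18 members were called higher and 1 lower, against the direction of day 4. Glycolysis had calls in both directions: Aldoa and Pdk1 were lower, while the astroglial aldolase Aldoc (0.23 ± 0.04 SE, adjusted p = 0.0011) and the lactate dehydrogenase subunit Ldhb (0.20 ± 0.05 SE, adjusted p = 0.026) were higher.

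Promoters are shown for the 3 genes of this group whose first annotated start holds the core letters of hypoxia-inducible factor sites. The sequences span 250 bases before to 50 bases after the transcription start in RefSeq on GRCm38.p6, read 5′ to 3′ on the gene's strand, and capitals mark ACGTG or its reverse complement CACGT. Bnip3 lies at chr7:138909457-138909756 (minus strand), Egln1 at chr8:124949205-124949504 (minus strand) and Fam162a at chr16:36071512-36071811 (minus strand), and in Bnip3 both words overlap in CACGTG.
Bnip3: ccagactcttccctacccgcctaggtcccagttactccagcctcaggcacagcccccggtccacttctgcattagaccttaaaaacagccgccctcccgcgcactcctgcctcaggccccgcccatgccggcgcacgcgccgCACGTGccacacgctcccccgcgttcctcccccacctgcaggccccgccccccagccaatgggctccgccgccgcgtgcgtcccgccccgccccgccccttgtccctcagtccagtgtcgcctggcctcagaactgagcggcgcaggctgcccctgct
Egln1: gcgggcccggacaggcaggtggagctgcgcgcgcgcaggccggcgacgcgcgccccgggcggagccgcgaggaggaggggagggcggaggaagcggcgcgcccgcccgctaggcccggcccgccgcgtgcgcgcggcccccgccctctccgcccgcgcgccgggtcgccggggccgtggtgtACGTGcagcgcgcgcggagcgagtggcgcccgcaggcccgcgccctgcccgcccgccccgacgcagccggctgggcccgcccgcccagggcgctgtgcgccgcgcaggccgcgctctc
Fam162a: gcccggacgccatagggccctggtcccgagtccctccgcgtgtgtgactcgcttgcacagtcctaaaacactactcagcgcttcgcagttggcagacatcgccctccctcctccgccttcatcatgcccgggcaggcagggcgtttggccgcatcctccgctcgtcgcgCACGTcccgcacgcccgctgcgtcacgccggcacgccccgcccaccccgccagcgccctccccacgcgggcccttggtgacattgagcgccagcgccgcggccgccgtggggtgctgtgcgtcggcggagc
Of the 5 hypoxia genes that were lower, 3 held the letters in this window (60%), as did 66.7% of the 21 hypoxia genes tested that had a promoter in the table. The share was 26.3% over the promoters of all tested genes and 19.7% over all promoters. It was 21.2% for all genes lower on day 4 and 28.9% for all genes higher. Pdk1 and the first start of Aldoa held no match. Further annotated starts of Aldoa, at chr7:126799205-126799504 and chr7:126799129-126799428, each held CACGT and do not enter these shares. A match is a description of letters and not a binding site.

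Endoplasmic reticulum folding genes had 4 calls, all higher, of 36 tested (11.1%). Of all genes tested 1.59% were called, and of those with an average log2 CPM above 8, 11.3%. Hspa5, the chaperone BiP, was at 463, 435, 405 and 429 CPM in the 4 WT libraries and 549.7, 537, 489 and 490.1 CPM in the 4 KO libraries. The groups did not overlap, and the log2 fold change was 0.25 ± 0.06 (SE, adjusted p = 0.0189). The protein disulfide isomerase Pdia6 rose by 0.27 ± 0.05 (SE, adjusted p = 0.00894), the lectin chaperone Calr by 0.24 ± 0.06 (SE, adjusted p = 0.0384) and Txndc12 by 0.24 ± 0.05 (SE, adjusted p = 0.0112), while the list median was 0.05 and 1 to 4 passed when 1 library was left out (1 without WT replicate 2). In the matrix and adhesion list 3 of 31 (9.68%) were higher and 0 lower, with a median of 0.17. The 3 were Tnc, the integrin subunit Itgav (0.25 ± 0.05 SE, adjusted p = 0.00923) and the brain proteoglycan Ncan (0.21 ± 0.05 SE, adjusted p = 0.0137). Cytosolic ribosomal protein genes shifted by little but mostly in 1 direction, with 70 of 76 above 0 and a median of 0.10. Over all genes tested 49.3% were above 0. The share called was 2.63%, all higher, against 1.59% of all genes tested. Rpl19 was among those that passed (0.27 ± 0.07 SE, adjusted p = 0.0407), and 0 or 1 of the list passed when 1 library was left out. The call of Rpl19 was also lost after a correction for GC content and length.

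Several lists had a single call, which was 1.92 to 6.25% of the members tested. Of all genes tested 1.59% were called, and of those with an average log2 CPM above 8, 11.3%. These calls are therefore given as single genes and not as results of their lists. Msmo1, an enzyme of cholesterol synthesis, was at 303 ± 13.2 CPM in WT and 389 ± 13.7 CPM in KO (SD, n = 4 each) and rose by 0.36 ± 0.05 (SE, adjusted p = 7.12e-04), while the other 29 genes of the sterol list did not pass. Ccnd2, which encodes cyclin D2, rose by 0.27 ± 0.05 (SE, adjusted p = 0.00356), and 23 other D cyclins and cell cycle inhibitors did not pass. Cp (ceruloplasmin, an iron oxidase) rose by 0.24 ± 0.04 (SE, adjusted p = 0.00469), Ctsd (the lysosomal protease cathepsin D, 34.4% shared with Gm49369) by 0.31 ± 0.06 (SE, adjusted p = 0.00356) and the proteasome subunit gene Psmd1 by 0.26 ± 0.07 (SE, adjusted p = 0.0407). The splicing regulator Luc7l3 (-0.16 ± 0.04 SE, adjusted p = 0.0284), the selenium carrier Selenop (-0.27 ± 0.06 SE, adjusted p = 0.0125) and the axon guidance receptor gene Epha5 (-0.27 ± 0.06 SE, adjusted p = 0.0133) were lower.

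The lists of astroglial identity and of neural stem transcription factors held a higher share of calls (8.82% and 7.14%) than all genes tested (1.59%), but 0 to 2 and 0 to 1 genes passed as lower when 1 library was left out. Sox2, the transcription factor of neural stem cells, was at 123, 121, 137 and 135 CPM in the 4 WT libraries and 104, 99.1, 111 and 96.7 CPM in the 4 KO libraries. All KO libraries were below WT, with a log2 fold change of -0.33 ± 0.08 (SE, adjusted p = 0.0266), a call that was lost when any of 5 of the 8 libraries was left out. Nfia, a gliogenic transcription factor, fell to 1024 to 1070.0 CPM from 1165 to 1231 CPM (-0.18 ± 0.04 SE, adjusted p = 0.0222). These were the only calls among 28 neural stem and neurogenic transcription factors. Among 34 astroglial and radial glial genes, Aldoc was higher and Sox2 and Thrsp (-0.33 ± 0.09 SE, adjusted p = 0.0487) lower, 11 were above 0, and the median was -0.10. Ednrb, an endothelin receptor abundant on astroglia, fell by 0.21 on the log2 scale (SE 0.05, adjusted p = 0.0189). Cd68, a lysosomal glycoprotein known from macrophages, was at 3.99, 7.52, 6.56 and 7.25 CPM in the 4 WT libraries and 10.4, 12.7, 17.4 and 11.8 CPM in the 4 KO libraries. Cd68 rose by 1.02 ± 0.23 (SE, adjusted p = 0.0188), while the 6 microglial markers summed to 2.08 to 7.34 CPM in WT and 3.12 to 5.27 CPM in KO.

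Lists of the cell cycle, repair, chromatin and signalling mostly had 0 calls on day 4 by edgeR. None of 40 mitosis genes, 54 genes of DNA damage checkpoints and repair, 36 genes of H3K4 methylation and the LSD1 complex, 22 clock genes, 26 interferon-stimulated genes, 15 immediate early genes or 21 BMP targets and inhibitors passed. At an unadjusted p under 0.05 these lists held 6, 3, 3, 0, 2, 2 and 3 genes in that order, and DESeq2 called 1 gene of the BMP list and 0 of the others. With 1.59% of all genes tested called, 0 calls in lists of this size lie near the background. Their medians lay between -0.07 and 0.07 on the log2 scale. Of 31 replication genes only Pola1 passed (0.91 ± 0.23 SE, adjusted p = 0.0407), with overlapping groups. The study drew its targets from genes lower in KO on day 5 and not on day 4. The 6 targets listed here were all called lower on day 5, with a median log2 fold change of -0.38. On day 4 Bhlhe40 was at 76.3, 84.8, 89.3 and 87.5 CPM in the 4 WT libraries and 88.8, 85.7, 79.2 and 98.3 CPM in the 4 KO libraries. The groups overlapped, and the log2 fold change was 0.06 ± 0.09 (SE, adjusted p = 0.851). Its paralog Bhlhe41 (-0.03 ± 0.11 SE, adjusted p = 0.938), the checkpoint kinase gene Atr (-0.24 ± 0.12 SE, adjusted p = 0.388), Dazap2 (0.04 ± 0.04 SE, adjusted p = 0.808), Fbxl5 (-0.18 ± 0.10 SE, adjusted p = 0.472) and Pgk1 (-0.12 ± 0.06 SE, adjusted p = 0.408) did not pass, nor did the demethylase gene Kdm1a (0.06 ± 0.10 SE, adjusted p = 0.876) or Hopx, whose promoter drives the inactive CreERT2 of these cells (-0.14 ± 0.16 SE, adjusted p = 0.787). At an unadjusted p under 0.05, 1494 of all genes tested passed (13.1%).

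**Figure D3:**
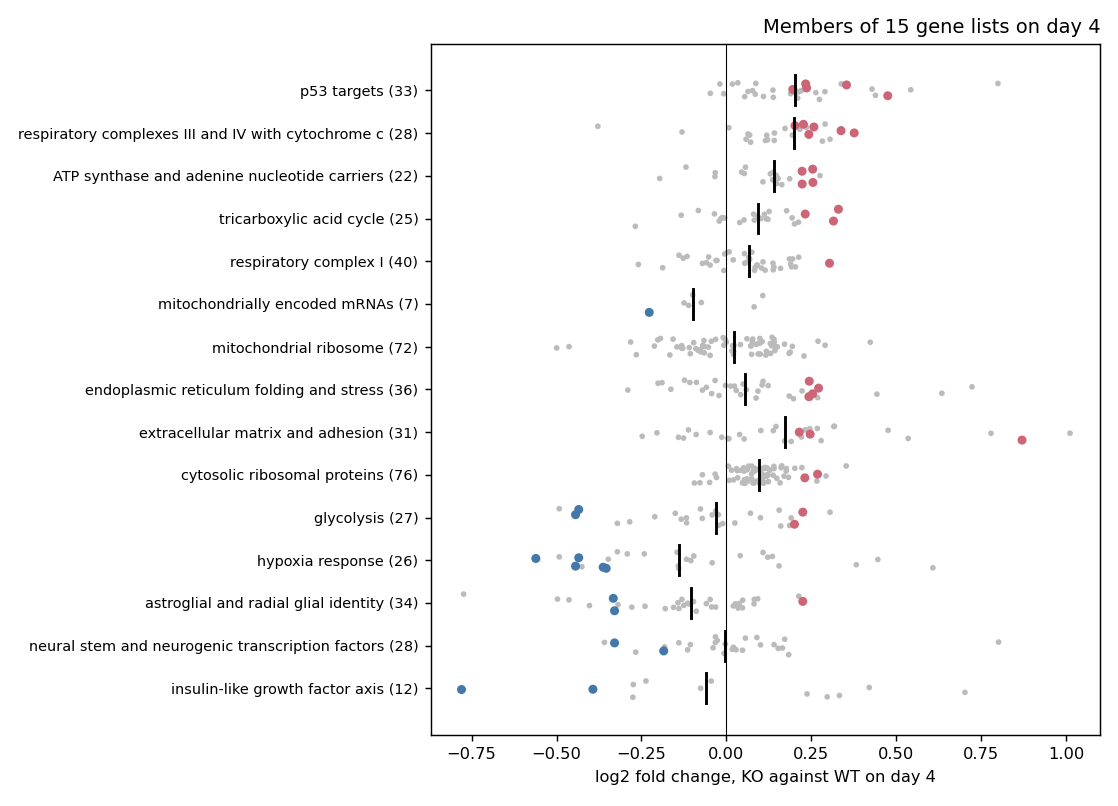
Log2 fold change of KO against WT on day 4 (horizontal axis) for each tested member of 15 gene lists (number tested in brackets), with the list median as a black line. Grey points did not pass, red points were called higher and blue points lower; the p53 list and the list of complexes III and IV hold only red calls and the hypoxia list only blue ones.

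Several genes linked to cilia were among the lower transcripts, a group put together after the values were seen and given without a test of the group. Rfx3, a transcription factor of ciliary genes, fell from 133 ± 4.40 CPM in WT to 99.9 ± 5.25 CPM in KO (SD, n = 4 each, adjusted p = 0.00293). Ccdc148, a coiled-coil gene, was at 59.7, 52.1, 63.7 and 56.1 CPM in the 4 WT libraries and 39.3, 33.0, 27.7 and 41.3 CPM in the 4 KO libraries. The groups were apart, with a log2 fold change of -0.71 ± 0.12 (SE, adjusted p = 0.00261). The intraflagellar transport gene Ift43 (83.4 ± 3.34 and 60.9 ± 5.64 CPM, adjusted p = 0.00894), Nme5 (44.9 ± 3.39 and 31.1 ± 5.42 CPM, adjusted p = 0.0282), the centrosome and cilium gene Cspp1 (166 ± 5.30 and 138 ± 5.81 CPM, adjusted p = 0.0419), Ttc25 (6.35 ± 1.43 and 2.77 ± 0.371 CPM, adjusted p = 0.0275) and the scarce Maats1 (1.88 ± 0.295 and 0.349 ± 0.316 CPM, adjusted p = 0.0384) were lower too. In the list of ependymal and motile cilia genes, 0 of 8 passed in edgeR, 2 had an unadjusted p under 0.05 (both lower), DESeq2 called 1, and 1 was above 0, with a list median of -0.26.

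A set of genes known from the mouse embryo at the 2-cell stage was read in every day 4 library. Zfp352 encodes a zinc finger protein of that stage. It was at 16.1, 20.4, 23.3 and 14.0 CPM in the 4 WT libraries and 30.9, 27.5, 34.4 and 28.5 CPM in the 4 KO libraries. The groups did not overlap, and the log2 fold change was 0.72 ± 0.16 (SE, adjusted p = 0.0163), lost without WT replicates 1 or 4 or KO replicate 3. Gm5117, a pseudogene that lies outside the naming rule, is not on the list of 2-cell genes given below. It is described here because it was also far higher on day 4 than on later days. Gm5117 was at 17.9, 17.5, 26 and 21.2 CPM in WT and 40.8, 43.5, 39.2 and 46.7 CPM in KO before TMM scaling. It rose by 1.05 ± 0.14 (SE, adjusted p = 1.87e-04). Usp17lc (1.15 ± 0.30, adjusted p = 0.0499) and Gm4778 (1.09 ± 0.24, adjusted p = 0.0184), which is not on that list either, rose as well.

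For a wider view, 17 genes known from the 2-cell stage were listed after these values had been seen, among them Zscan4d, Tcstv1, Tcstv3, Pramef25 and members of the Usp17l family, and their sum is a description with no test. The sum was 58.4 to 64.4 CPM in the WT libraries of day 4 and 87.8 to 96.5 CPM in the KO libraries, without overlap. It was 0.222 to 1.82 CPM in WT and 8.79 to 14.1 CPM in KO on day 5. On day 6 it was at most 0.39 CPM in WT and 1.41 to 3.21 CPM in KO, and on days 7 and 9 at most 0.777 CPM in any group. Of the 17 genes 12 were tested on day 4, 2 were called higher (against 0.927% of all genes tested) and 0 lower, and 14 had a higher mean in KO. Most belong to families of near-identical copies, and the counting kept uniquely mapped reads only, so the values of single members are uncertain. Whether these reads came from the cultures or entered from other libraries was not tested, so neither the sums nor the difference between KO and WT are shown to be expression in these cells.

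Some of these genes were far higher on day 4 than on any other day. Of 39017 genes, 30 had a mean above 2 CPM over the libraries of day 4 and less than an eighth of that mean on each other day, and 0 genes met the same rule for days 5, 6, 7 or 9. Of these 30 genes 8 were on the list of 17, 29 had a higher mean in KO, 4 were called higher and 0 lower. Over all genes tested 49.3% had a log2 fold change above 0 and 0.927% were called higher. The 30 genes were chosen by their level in the same day 4 libraries, KO libraries among them, and most were scarce. Genes of pluripotent cells and early lineages were near 0 in the same libraries: Pou5f1, Nanog, Dppa3, Cdx2 and Gata4 reached at most 1.23 CPM. The day 4 libraries form a table of their own, so day and table cannot be told apart.

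**Figure D4:**
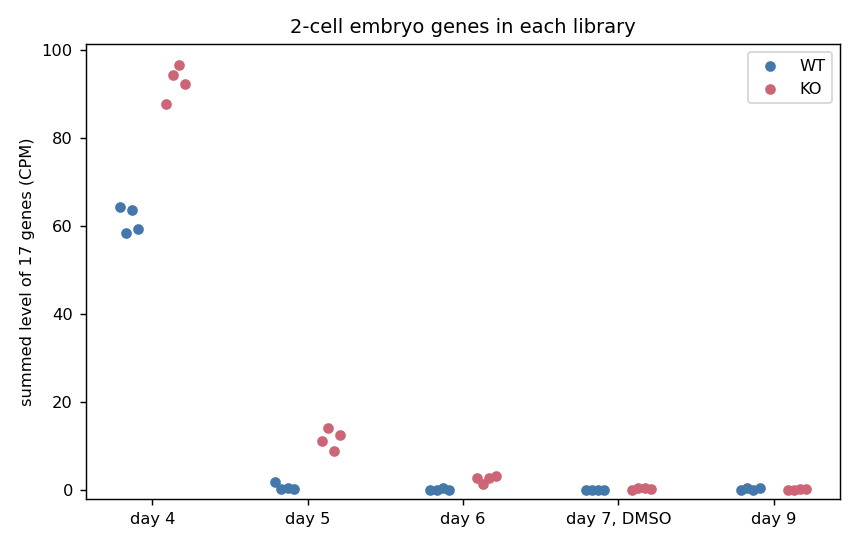
Summed level in CPM (vertical axis) of 17 genes known from the 2-cell embryo, with 1 point for each WT library (blue) and KO library (red) of days 4, 5, 6, 7 (DMSO) and 9 (horizontal axis). On day 4 KO libraries sit at 87.8 to 96.5 CPM above WT libraries at 58.4 to 64.4 CPM, and from day 6 on all libraries are at or below 3.21 CPM.

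Whether day 4 genes kept their difference was read in libraries of later days, which share no sample with day 4. Of the genes higher on day 4, 29.8% were higher on day 5 (31 of 104 tested then) and 7 were lower, while 6.7% of all genes were higher and 9.55% lower. Of the genes lower on day 4, 33.3% were lower on day 5 (25 of 75) and 3 were higher. On day 6 the opposite calls outnumbered the same ones. There 18 of 104 were higher again and 25 lower (all genes 7.24% higher and 6.82% lower), and 10 of 75 were lower again and 16 higher. On day 7 under DMSO 33 of 102 were higher again and 27 lower (all genes 17.8% higher and 19.4% lower), and 17 of 76 were lower again and 30 higher. On day 9 the share in the same direction was 33.7% for higher genes (35 of 104, all genes 6.95%) and 28.0% for lower genes (21 of 75, all genes 5.7%), with 6 and 8 opposite calls.

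Only 6 of the 182 genes had the same call on all 4 later days, and they are named after their values were seen: A2m, Adamts1, Olfm1 and Tnc (higher), and Gt(ROSA)26Sor and Selenop (lower). The log2 fold change of Tnc lay between 0.56 on day 5 and 1.21 on day 7. Gt(ROSA)26Sor was at -0.48, -0.26, -0.48 and -0.54 on days 5, 6, 7 and 9. Eda2r, Trp53inp1, Btg2, Fas and Rps27l, the p53 targets called on day 4, each had the same call on 3 of the 4 later days, but Btg2 (-0.27) and Fas (-0.24) were lower on day 7 and Rps27l (-0.17) on day 6. On none of the later days did 43 of the higher and 33 of the lower genes pass in the same direction, among them Mdh1, Mdh2, Uqcrc2, Msmo1, Cp, Sox2, Nfia and Ccdc148.

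**Figure D5:**
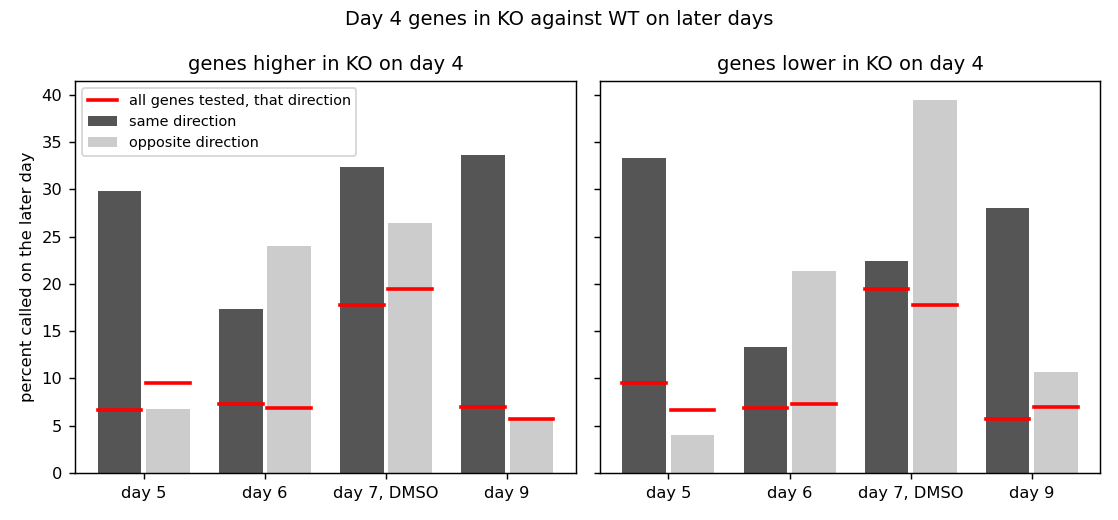
Percent of the genes called higher (left) and lower (right) in KO on day 4 that were called in the same direction (dark bars) or in the opposite direction (light bars) on each later day, over those tested then. Red lines give the percent of all genes called in that direction; on days 5 and 9 the dark bars stand at 28.0 to 33.7% against 5.7 to 9.55% of all genes.

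The differences between days were tested directly in joint fits. Between day 4 and day 5, 6.95% of 12208 genes (849) differed in their response, and between day 4 and day 9, 2.03% of 12287 genes (249). Of the 106 genes higher on day 4, 51 had a larger log2 fold change on day 4 than on day 5 and 3 a smaller one, and of the 76 lower genes 20 were more negative on day 4 and 2 less so. Against day 9 these counts were 23 and 1 for higher genes and 25 and 0 for lower genes. Since day 4 calls were chosen on the same counts that enter this difference, the direction of these counts is in part fixed by the choice.

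Several genes turned round after day 4. Msmo1 was higher on day 4 (0.36) and lower on day 5 (-0.35), Cp went from 0.24 to -0.24, and Pls3 from 0.24 to -0.29, all with a tested difference. The ribosomal RNAs mt-Rnr1 and mt-Rnr2 were lower on day 4 and higher on day 5 (0.74 and 0.54). Npvf stayed higher on day 5, by 0.48, and was at -0.16 on day 9. Igfbp5 went from -0.78 on day 4 to 0.24 on day 9, Ednrb from -0.21 to 0.50, Tmem47, a junctional membrane protein gene, from -0.21 to 0.43, and Chst11, a chondroitin sulfotransferase gene, from 0.44 to -0.31. For each of these the difference between days passed adjusted p under 0.05 in edgeR.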

How the data were processed

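RNA of 48 SMART-seq2 libraries was sequenced, and the 4 WT and 4 KO libraries of day 4 are described here. The authors deposited raw counts per gene in 3 tables: day 4, days 5, 6 and 9, and day 7. They trimmed reads with Trimmomatic 0.32, aligned them to GRCm38 with STAR 2.5.2a and counted uniquely mapped reads without strand, so reads of overlapping or antisense genes cannot be told apart. The release of the gene annotation is not given in the sources used here.

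From these counts, genes were kept by edgeR's filterByExpr (minimum count 10, minimum total 15), scaled by TMM and tested with the quasi-likelihood test of edgeR 4.0.16 in R 4.3.3, with Benjamini-Hochberg adjustment over all genes tested. Later days were fitted within their own tables, and differences between days were interaction terms in joint fits. DESeq2 1.42.0, limma-voom (limma 3.58.1), other scalings, filters and corrections, summed libraries and leaving out each library were the alternatives. In a simulated day 4 table the test recovered 74% of genes changed 1.5-fold and 98% of those changed 2-fold. The simulation gave every gene the same spread and changed only genes above a minimum read count. These shares therefore do not hold for scarce or more variable genes.

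Genes named by rule were 11 genes the study followed or used, the 15 with the largest and the 15 with the smallest log2 fold change and the 12 with the smallest p among called genes of at least log2 CPM 3 that are not predicted genes, up to 6 called genes of each of 58 lists, and 6 such called genes with the smallest p of each difference between days. The members and lists were chosen with earlier results of these data known. Some called genes are not reported here. Sequences came from RefSeq on GRCm38.p6.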

Additional observations from a re-analysis of the deposited data

Results flagged for a closer look

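Single libraries stood apart from the other 3 of their group in 5 of 224 groups of 4 libraries that were looked at, fewer than the 1 in 20 that chance gives. Atr was at 42.2 CPM in WT replicate 1 and at 50.3 to 51.7 CPM in the other WT libraries. Ccnd2 was at 567 CPM in WT replicate 2 against 531 to 533 CPM. Pls3 was at 4815 CPM in KO replicate 4 against 4399 to 4438 CPM. Ptgds was at 30.1 CPM in KO replicate 1 against 26 to 26.4 CPM. Wsb1 was at 570.1 CPM in WT replicate 3 against 559.9 to 561.3 CPM.

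Several genes responded differently on day 4 and on a later day in an interaction term (edgeR). The values are log2 fold changes on day 4 minus those on the later day. Against day 5 the difference was 0.50 for Cp, 0.73 for Msmo1, 0.55 for Pls3 and 0.69 for Npvf. It was -1.03 for mt-Rnr1 and -0.74 for mt-Rnr2. Against day 9 it was 0.77 for Chst11 and 1.32 for Npvf. It was -0.69 for Ednrb, -1.01 for Igfbp5 and -0.62 for Tmem47. These genes were chosen for this difference among genes called on day 4, and the tables of the days were deposited separately.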

How the results depend on the processing

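The number of genes called for KO against WT on day 4, 182, became 304 without a filter on low counts (151 higher, 153 lower), 361 with DESeq2 (203 and 158), 120 with libraries 1 and 3 and libraries 2 and 4 summed (66 and 54), 17 with libraries 1 and 2 and libraries 3 and 4 summed (10 and 7) and 31 at 1.5-fold or more (18 and 13). DESeq2 called 172 of the 182 the same way and the fit without a filter 178. Other scalings, a stricter filter, limma-voom and a correction for GC content and length gave 179 to 212. Leaving out 1 library gave 90 to 172 for the day 4 difference, 663 to 985 for its difference from day 5, 195 to 239 for that from day 9, and 61 to 94 for day 4 genes with the same call on a later day (106 with all libraries). Without a filter the latter 2 became 379 (from 249) and 166.

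The labels do not say whether same-numbered WT and KO libraries were paired, and they were treated as unpaired. Same-numbered libraries deviated together with correlations of 0.00 to 0.06, and other WT and KO libraries with -0.08 to 0.06. Correlations this weak cannot decide whether the libraries were paired. With the replicate number as a block 249 genes passed (134 higher, 115 lower), and with the block and a correction for GC content and length 352 (208 and 144).

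Of the 95 named genes that passed, 80 lost their call in at least 1 alternative. The GC and length correction ended calls that included Cox6b1, Uqcr10, Rpl19, Luc7l3, Tmem47, mt-Nd4, mt-Rnr2 and Ecm2; the cause was not tested. A sign turned in 3 genes, none of them called, when 1 library was left out. The log2 fold change of Bhlhe40 ranged from -0.000185 (without KO replicate 4) to 0.107, that of Bhlhe41 from -0.0837 to 0.0408 (without WT replicate 1) and that of Thumpd3 from -0.0197 (without WT replicate 2) to 0.202. The median SE of the log2 fold change was 0.40 at log2 CPM of 2 or less and 0.06 above 8, so small differences of scarce transcripts, Setd1a among them, were not detectable.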
